A study of Astyanax mexicanus with 8 samples.

Results

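Chemokines, interleukins, tumour necrosis factor (TNF) superfamily ligands, 4 colony stimulating factor genes and the receptors of these proteins were followed in spheroids of the fish Astyanax mexicanus. Members were taken by gene name from the deposited table, as every row whose name starts with cxcl, cxcr, ccl, ccr, ackr, il followed by a digit, tnfsf or tnfrsf, together with tnfa, tnfb, csf1a, csf1b, csf1ra and csf3a. The name lif, also sought, matched no row. This gave 97 of the 27420 listed genes, among them 14 chemokine ligands, 21 chemokine receptors, 16 interleukins, 20 interleukin receptor genes, 11 TNF ligands, 11 TNF receptors and 4 colony stimulating factor genes. The rule itself uses gene names and no level, and it was written with earlier results of these data known. Of the 97, 34 reached a mean of at least 1 TPM over all libraries and could be tested. TPM, transcripts per 1000000, is a level per transcript length in which each library sums to 1000000.

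The CFL group held spheroids of a wild-type liver-derived cell line of the cave form (Pachon in the sample titles), and the SFL group held spheroids of a wild-type liver-derived line of the surface form. Each line was seeded at 10000, 25000, 50000 and 100000 cells per well in plates to which cells do not attach, grown without added treatment and labelled day 28, with 1 library per line and density and so 8 libraries in all. In the comparison of spheroid sizes, large stands for 50000 and 100000 cells per well and small for 10000 and 25000. Each form of the fish is represented by a single line, so that a difference between the lines cannot be assigned to cave or surface origin, and the p-values measure only the spread between these libraries.

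Chemokines are small secreted proteins that draw leukocytes along a gradient through receptors coupled to G proteins, while atypical chemokine receptors bind the same ligands and remove them without that signal. Most interleukin receptors and the colony stimulating factor receptors signal through JAK kinases and STAT factors or through a tyrosine kinase of their own, and TNF receptors signal through adaptor proteins to NF-kB or to cell death. In liver, such signals pass between hepatocytes, stellate cells, endothelium, resident macrophages and incoming leukocytes, and much of what is known of them comes from mammals and zebrafish.

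The libraries listed 17819 to 19408 genes above 0, and their depth is unknown. The cells are labelled as liver-derived, and 4 of the 12 hepatocyte marker genes found were tested. The list summed to 5.48 to 15.1 TPM in CFL spheroids and 48.9 to 64.2 TPM in SFL spheroids, and most of the SFL sum was fgb, at 1.73 to 6.42 TPM in CFL and 34.33 to 43.84 TPM in SFL. All 4 tested markers (fgb, tfa, apoa1a and apoa2) were lower in CFL, beside 31.3% of all genes tested. Untested markers were split. The tat gene had 1.28 to 2.23 TPM in CFL and 0 to 0.02 TPM in SFL, and fabp10a up to 2.05 TPM in CFL and 0 in every SFL library. Transcripts of apoba were at 0.01 to 0.07 TPM in CFL and 0.73 to 1.64 TPM in SFL. The ttr gene was listed at 0 in every library and hnf4a never passed 0.31 TPM. Among defining leukocyte genes, spi1b never passed 0.06 TPM, mpx 0.12 TPM and PTPRC 0.44 TPM. Of the complement C1q genes of macrophages, c1qa and c1qc were listed at 0 throughout, while c1qb was at 0 in every CFL library and at 0.8 to 1.25 TPM in SFL. The 7 lymphocyte markers found summed to 0.18 to 0.66 TPM in CFL and 0.42 to 1.01 TPM in SFL spheroids. The 8 general leukocyte markers summed to 44.2 to 63.3 TPM in CFL and 37.6 to 45.0 TPM in SFL spheroids, most of it itgb2. In that list itgb2 was higher in CFL and arhgdig lower (0.09 to 0.51 TPM in CFL and 10.49 to 16.29 TPM in SFL). Of its untested genes, lcp1 was at 0.13 to 0.31 TPM in CFL and 0.8 to 2.15 TPM in SFL. The coro1a gene went the other way, at 0.61 to 2.36 TPM in CFL and 0.16 to 0.42 TPM in SFL. The 18 macrophage rows summed to 38.0 to 62.5 TPM in CFL and 58.1 to 105.2 TPM in SFL spheroids, most of it a single MPEG1 row. Of 3 tested macrophage rows 2 were lower in CFL and 1 was not called. Untested mrc1a had 0.27 to 0.38 TPM in CFL and 0 to 0.03 TPM in SFL. Neutrophil markers, 8 rows led by mmp9 and nccrp1, summed to 104.6 to 191.0 TPM in CFL and 145.4 to 294.7 TPM in SFL spheroids. Those 2 were the tested rows and were not called in the main fit, though mmp9 passed in limma with density as a replicate block (adjusted p 0.0123). No other row of that list passed 0.12 TPM. Of the other lists, 13 stellate and fibroblast genes summed to 184.4 to 315.4 TPM in CFL against 563.1 to 668.3 TPM in SFL. Most of the SFL sum was tagln, col1a2 and acta2, and of 7 tested genes of the list 4 were lower and 2 higher in CFL, the higher ones being pdgfra (5.66 to 20.38 TPM in CFL and 0.06 to 0.25 TPM in SFL) and pdgfrb (2.62 to 10.55 TPM in CFL and 0.22 to 1.16 TPM in SFL). The 10 endothelial genes summed to 17.5 to 33.7 TPM in CFL against 124.2 to 195.3 TPM in SFL, most of it kdrl and kdr. All 3 tested genes of that list (kdrl, kdr and tek) were lower in CFL. Some untested ones went the other way at low levels. The fli1a gene had 0.17 to 0.76 TPM in CFL and 0.01 to 0.15 TPM in SFL, and vwf 0.14 to 0.37 TPM and 0.01 to 0.11 TPM. For tie1 the values were 0.05 to 0.41 TPM in CFL and 0 to 0.06 TPM in SFL. The 9 epithelial genes, mainly keratins, summed to 1166 to 1656 TPM in CFL against 10780 to 14570 TPM in SFL. Of 5 tested epithelial genes 4 were lower in CFL and 1 was higher, her9, at 12.62 to 18.78 TPM in CFL and 2.63 to 4.75 TPM in SFL. Untested cldn7b had 0.23 to 1.11 TPM in CFL and 0 to 0.14 TPM in SFL. The cdh5 transcript, a defining endothelial marker, stayed at or below 0.03 TPM and epcam, a defining epithelial one, at or below 0.09 TPM. The part of these lists in the differences between the lines below was not tested, and in such bulk RNA fewer cells of a type and less RNA per cell cannot be told apart.

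The first comparison set CFL against SFL spheroids over the same 4 seeding densities. Of the 34 tested members, 20 were higher and 8 lower in CFL spheroids, and 6 did not pass the test. Among all 13783 genes tested, 27.6% were called higher and 31.3% lower in CFL. The median log2 difference, CFL minus SFL on the log2(TPM + 1) scale, was 1.02 over the members and -0.04 over all genes. At least a 2-fold difference on that scale was seen in 17 of the higher and 7 of the lower members, and all 28 called members had the same sign at every density. No share over all genes is given for these counts, so they cannot be read as particular to the members. The 4 CFL values and the 4 SFL values lay apart without overlap for 26 of the 34 members, where 49.0% of all genes did so. The 8 members at a mean of 1 TPM or more in CFL alone were all higher, as were 89.5% of the 1019 such genes in the table. Of 3 members at that level in SFL alone 2 were lower, as were 90.4% of 910 such genes. Such genes pass the filter for testing only through the line in which they are high. That fixes the sign of their difference in mean TPM, so the direction of these calls is no support. They are nevertheless part of the counts and of the member median above. The 23 members at that level in both lines held 12 higher (52.2%) and 6 lower (26.1%), with a median log2 difference of 0.56. Among the 11854 such genes in all, 24.4% were higher and 29.4% lower, with a median of -0.05. Adjusted p-values throughout come from limma with Benjamini-Hochberg adjustment over all genes tested, each ± is an SD over 4 libraries that differ in density and so includes its effect, and differences on this scale understate those of genes at low TPM.

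**Figure D1:**
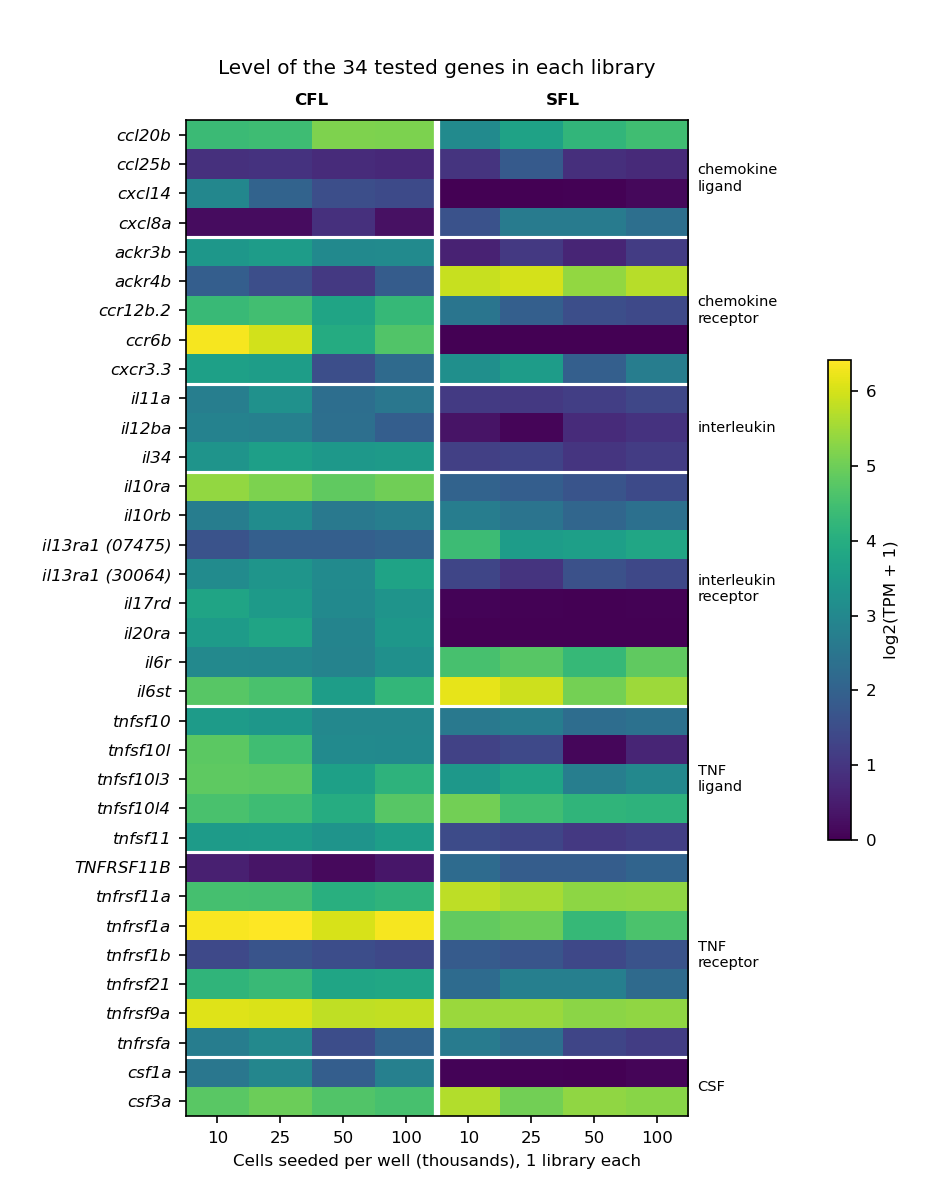
TPM of the 34 tested members (rows, grouped by class) in each library (columns, by line and cells seeded per well), with the colour on a log2(TPM + 1) scale. The rows of ccr6b and il20ra are at 0 in all SFL columns, and ackr4b is the clearest row of the opposite kind, at 40.42 to 63.07 TPM in SFL and 1.08 to 2.81 TPM in CFL.

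Among the chemokine ligands, 2 of 4 tested members were higher in CFL spheroids and 1 was lower. The transcript of ccl20b (ENSAMXG00000038690), a fish relative of CCL20, which in mammals draws dendritic cells and lymphocytes through CCR6, stood at 19.87, 20.67, 35.25 and 34.5 TPM in CFL spheroids of 10000, 25000, 50000 and 100000 cells, against 7.46, 11.94, 17.65 and 20.81 TPM in SFL spheroids. It was higher in CFL at each density, although the ranges of the lines overlapped, with the higher values of each in the large spheroids (log2 difference 0.93, SE 0.14, adjusted p 0.000614). Transcripts of cxcl14 (ENSAMXG00000030504), a chemokine made by many resting epithelia in mammals, were at 6.79, 3.13, 1.92 and 1.72 TPM in CFL and at 0, 0, 0.03 and 0.1 TPM in SFL (1.95, SE 0.26, adjusted p 0.000277). The ligand that was lower in CFL was cxcl8a (ENSAMXG00000035755), the fish counterpart of interleukin 8 that attracts neutrophils. It had 0.15, 0.16, 0.85 and 0.23 TPM in CFL spheroids and 2.08, 5.35, 5.41 and 4.04 TPM in SFL spheroids (-1.93, SE 0.25, adjusted p 0.000214). For ccl25b, at 0.66 to 0.91 TPM in CFL and 0.71 to 2.51 TPM in SFL, the difference of -0.26 did not pass (adjusted p 0.352).

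The other 10 ligands stayed under the level for testing, and 3 of them, ccl19a.1, ccl19a.2 and ccl38a.5, were listed at 0 in all libraries. Both cxcl12 genes, ligands of Cxcr4 that guide migrating cells in embryos, were close to 0: cxcl12a reached at most 0.05 TPM and cxcl12b had 0.15, 0.08, 0.04 and 0.15 TPM in CFL and 0 in every SFL library. A second ccl20 gene, ccl20a.3, had 0.31, 0.49, 0.4 and 0.87 TPM in CFL against 0, 0, 0.07 and 0.32 TPM in SFL.

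The chemokine receptors held 3 higher, 1 lower and 1 uncalled member among 5 tested. Transcripts of ccr6b (ENSAMXG00000026329), a fish copy of the receptor that binds CCL20 in mammals, were at 79.59, 62.52, 14.49 and 24.73 TPM in CFL spheroids and listed at 0 in all 4 SFL libraries (adjusted p 1.06e-05). The gene ccl20b, paired with it here by name alone, was present in both lines, so that transcripts of ccl20b and ccr6b occurred together in CFL spheroids. Whether the proteins of these fish copies bind each other was not tested. The other copy of the receptor, ccr6a, reached at most 0.51 TPM in CFL and 0.62 TPM in SFL. Within CFL, ccr6b was highest at the 2 lower densities, where ccl20b was lowest. A further receptor gene, ccr12b.2 (ENSAMXG00000032762) had 19.58, 21.27, 12.4 and 18.79 TPM in CFL and 4.67, 2.88, 1.89 and 1.67 TPM in SFL (2.37, SE 0.21, adjusted p 2.05e-05).

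Both tested genes named as atypical receptors (ackr) differed, in opposite directions. Transcripts of ackr3b (ENSAMXG00000025521), whose zebrafish protein clears Cxcl12 from the path of migrating cells, were at 9.63, 10.76, 7.2 and 7.39 TPM in CFL against 0.53, 1.09, 0.59 and 1.21 TPM in SFL (2.40, SE 0.20, adjusted p 1.47e-05). Those of ackr4b (ENSAMXG00000025769), a relative of the mammalian scavenger of CCL19, CCL21 and CCL25, were at 2.81, 1.89, 1.08 and 2.68 TPM in CFL against 58.01, 63.07, 40.42 and 52.42 TPM in SFL, and this was the most negative difference of any member (-4.15, SE 0.22, adjusted p 1.17e-06). The paralogues ackr3a, at 0 throughout, and ackr4a stayed below the level for testing. The remaining tested receptor, cxcr3.3 (ENSAMXG00000018866), which scavenges Cxcl11-type ligands in zebrafish, averaged 7.0 ± 4.9 TPM in CFL and 6.8 ± 3.4 TPM in SFL (n = 4 each; -0.10, SE 0.40, adjusted p 0.845). The receptors for Cxcl8 and Cxcl12 were low or absent: cxcr1 never passed 0.17 TPM, cxcr2 0.06 TPM and cxcr4a 0.1 TPM, and cxcr4b had 0 in every CFL library and 0.46, 0.54, 0.21 and 0.18 TPM in SFL. The receptor for Ccl25, ccr9a, was near 1 TPM in both lines, with 0.69 to 1.13 TPM in CFL and 0.65 to 1.55 TPM in SFL.

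**Figure D2:**
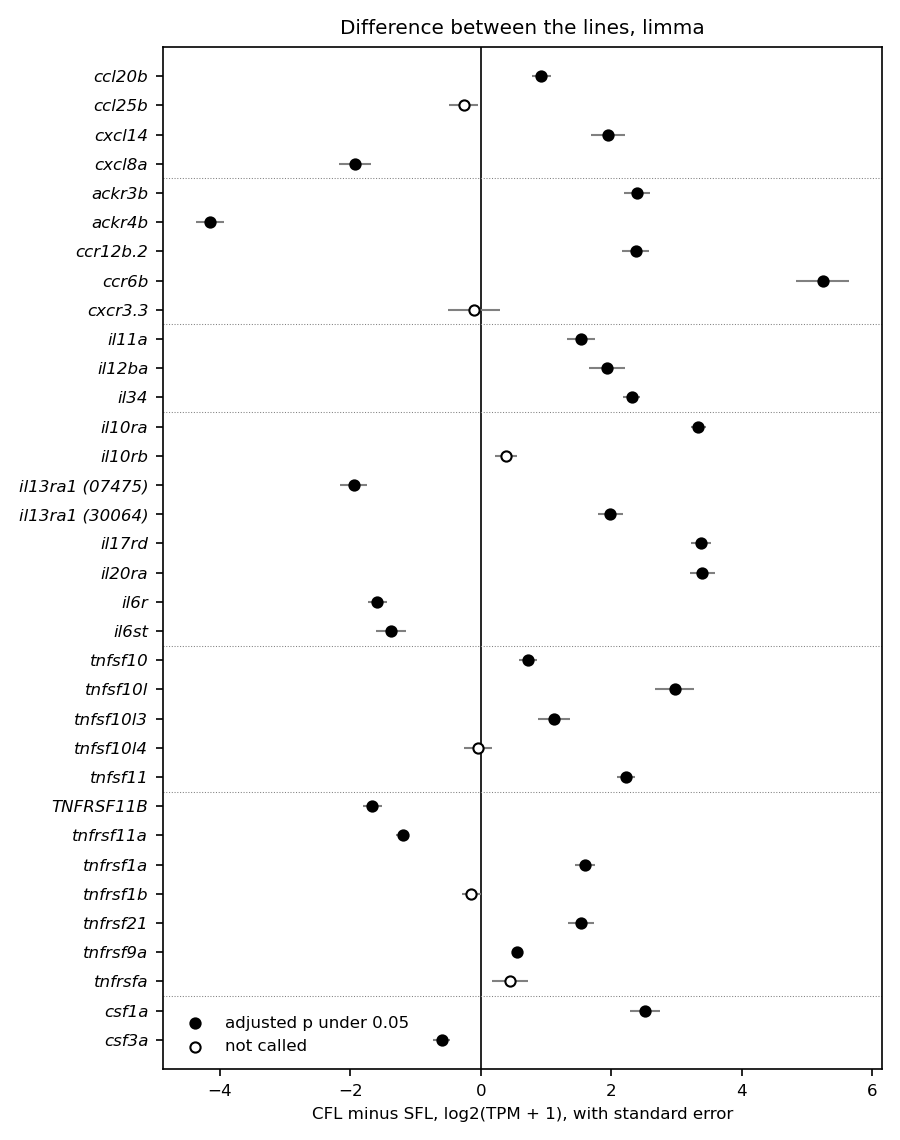
Difference between the lines for each tested member, CFL minus SFL as log2(TPM + 1) with density in the model; points are the estimates and bars 1 SE on each side, with the colour giving the call at an adjusted p of 0.05. Members to the right are higher in CFL, and ackr4b lies farthest left at -4.15. The positions of ccr6b and il20ra, at 0 in SFL, depend on the added 1 TPM, as do those of members close to 0 in a line, such as il17rd, csf1a and cxcl14 in SFL.

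All 3 tested interleukins were higher in CFL spheroids. Transcripts of il34 (ENSAMXG00000029682), which encodes the ligand that shares its receptor with colony stimulating factor 1, had 9.07, 11.42, 9.7 and 10.32 TPM in CFL and 1.31, 1.44, 1 and 1.22 TPM in SFL (2.31, SE 0.14, adjusted p 2.15e-06). The values of each line hardly moved with density. For il12ba (ENSAMXG00000001197), the subunit that interleukins 12 and 23 have in common, the levels were 6.21, 5.91, 4.06 and 2.81 TPM in CFL against 0.27, 0.06, 0.74 and 0.92 TPM in SFL (1.94, SE 0.28, adjusted p 0.000396). In il11a (ENSAMXG00000039587), a cytokine of the interleukin 6 family that mammalian stromal cells secrete, the values were 5.66, 8.58, 4.02 and 4.83 TPM in CFL and 1.14, 1.1, 1.27 and 1.57 TPM in SFL (1.54, SE 0.21, adjusted p 0.000332).

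The other 13 interleukin rows were under the level for testing, and most of the classical inflammatory cytokines were among them. The highest, with 1.99 TPM in a single library, was a row named il1b, a gene with 2 rows in the table. Transcripts of il6 never passed 0.22 TPM, and il10 had 0.14, 0.21, 0.04 and 0.12 TPM in CFL and 0 in every SFL library. The paralogue il12bb had its higher values in SFL, with 0.28, 0.54, 0.28 and 0.39 TPM in CFL and 0.79, 1.52, 1.59 and 0.87 TPM in SFL, and il16 had 1.01, 1.08, 0.56 and 0.5 TPM in CFL against 0.24, 0.24, 0.21 and 0.13 TPM in SFL.

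Interleukin receptor genes were split, with 4 higher, 3 lower and 1 uncalled among 8 tested. Transcripts of il10ra (ENSAMXG00000042331), the chain that gives the interleukin 10 receptor its specificity, were at 40.56, 34.62, 27.68 and 31.5 TPM in CFL and 3.09, 2.75, 2.2 and 1.73 TPM in SFL, the member with the smallest adjusted p (3.33, SE 0.12, adjusted p 1.49e-07). Its partner chain il10rb, which also serves interleukins 22 and 26, averaged 6.04 TPM in CFL and 4.39 TPM in SFL, a difference of 0.39 (SE 0.17) that did not pass (adjusted p 0.0761) but passed with density as a replicate block (adjusted p 0.0304). Transcripts of il20ra (ENSAMXG00000002024), a chain of the receptors for interleukins 19, 20 and 24 in mammals, stood at 10.52, 12.52, 6.48 and 9.58 TPM in CFL and were listed at 0 in every SFL library (adjusted p 1.53e-06). In il17rd (ENSAMXG00000004054), also called Sef and known in zebrafish as an inhibitor of fibroblast growth factor signalling, the CFL values were 12.56, 10.39, 7.22 and 9.05 TPM and the SFL values 0.05, 0.03, 0 and 0.02 TPM (3.37, SE 0.16, adjusted p 5.74e-07).

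The interleukin 6 receptor pair was lower in CFL spheroids. Transcripts of il6r (ENSAMXG00000029667), the ligand-binding chain, had 7.15, 7.05, 6.31 and 8.37 TPM in CFL against 22.52, 26.13, 18.8 and 27.83 TPM in SFL (-1.58, SE 0.15, adjusted p 3.3e-05). Its signalling chain il6st (ENSAMXG00000040431), known as gp130 and used by the whole interleukin 6 family, had 25.76, 23.01, 11.01 and 18.18 TPM in CFL against 71.89, 59.69, 33.01 and 43.31 TPM in SFL (-1.37, SE 0.23, adjusted p 0.000938). So il11a was higher in the line in which the signalling chain was lower, while il11ra, the binding chain for interleukin 11, stayed under the level for testing, with 0.07 to 1.05 TPM in CFL and 0.39 to 1.91 TPM in SFL.

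The table lists 2 rows named il13ra1, a receptor chain for interleukin 13, and they differed in opposite directions. ENSAMXG00000007475 had 2.13, 2.84, 2.87 and 3.13 TPM in CFL and 20.2, 10.73, 11.26 and 12.93 TPM in SFL (-1.95, SE 0.21, adjusted p 7.42e-05). ENSAMXG00000030064 had 7.55, 9.14, 7.39 and 12.26 TPM in CFL and 1.54, 0.95, 2 and 1.63 TPM in SFL (1.99, SE 0.19, adjusted p 3.16e-05). Summed, the rows came to 11.8 ± 2.57 TPM in CFL and 15.3 ± 4.45 TPM in SFL (n = 4 each), with overlapping ranges. How reads shared by like copies were divided between rows is uncertain here, as it is for the rows named cxcr3.1, il1b and tnfrsf11b, which also occur more than once, and for the tnfsf10-like genes.

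**Figure D3:**
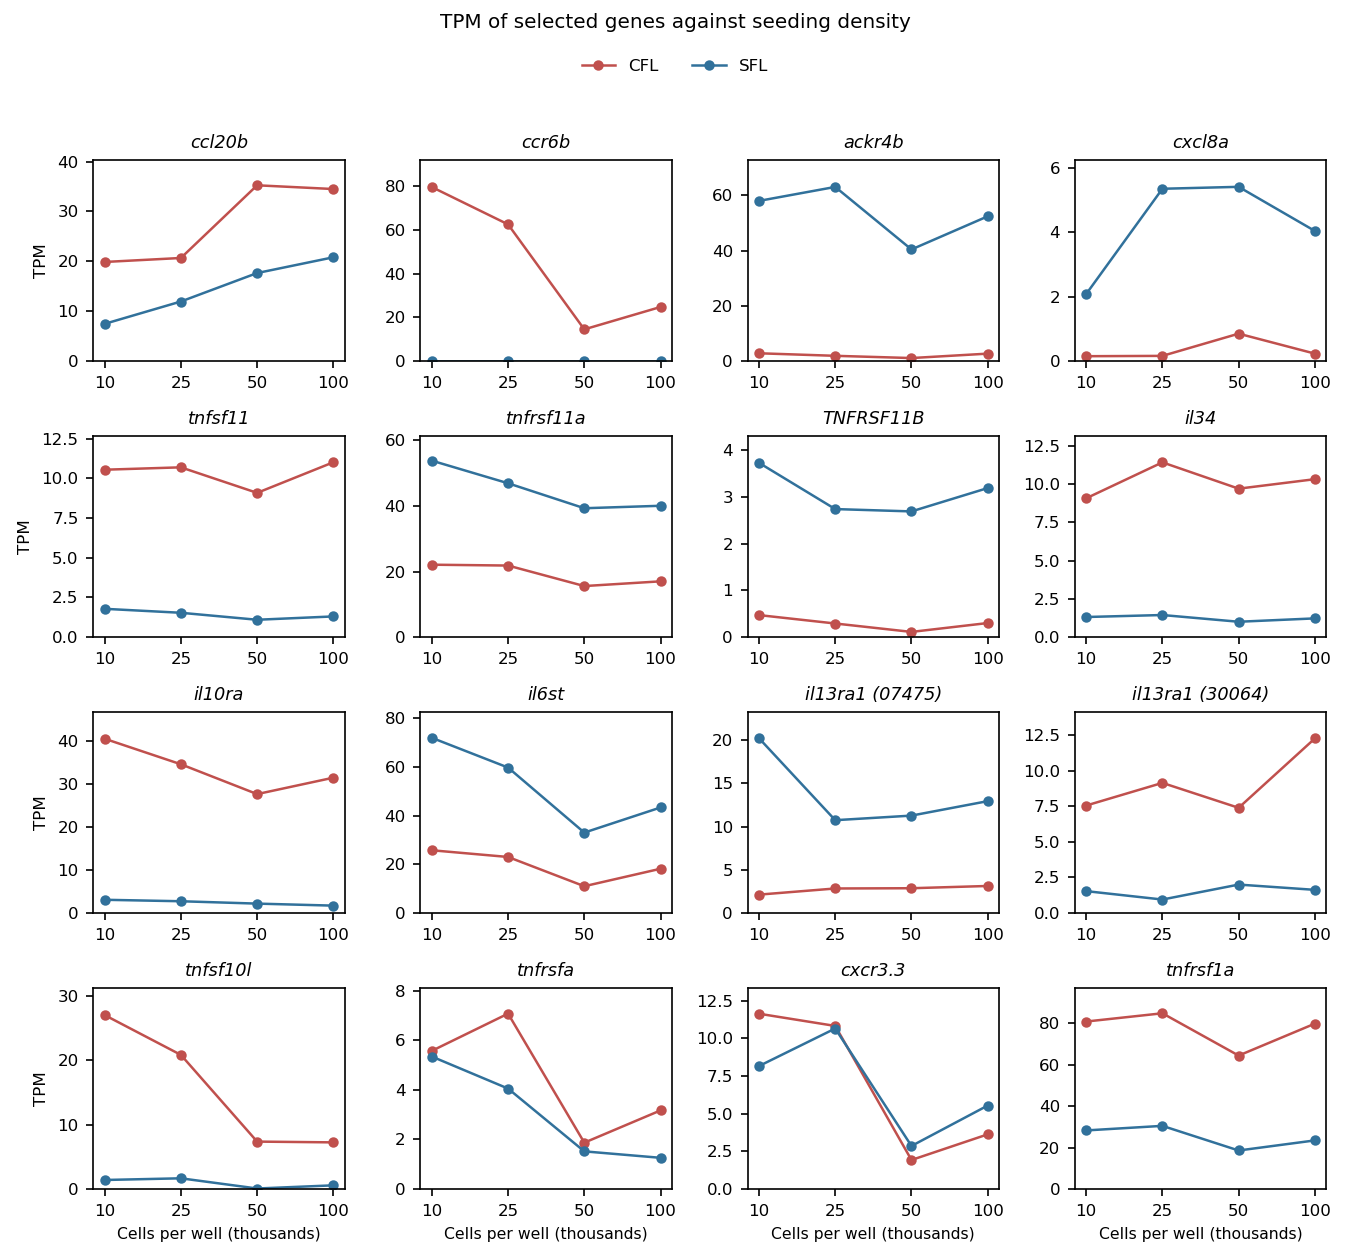
TPM against cells seeded per well for selected members, 1 panel per gene, with 1 point per library and the lines drawn between the densities of CFL and of SFL. The panels show separate levels at every density for il10ra, il34 and ackr4b, and for ccl20b the highest values in the large spheroids, 35.25 TPM in CFL and 20.81 TPM in SFL.

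Of 5 tested TNF ligands, 4 were higher in CFL spheroids and none was lower. Transcripts of tnfsf11 (ENSAMXG00000034608), known as RANKL and best known in mammals for driving osteoclast formation, had 10.55, 10.7, 9.09 and 11.02 TPM in CFL and 1.78, 1.53, 1.09 and 1.3 TPM in SFL (2.23, SE 0.14, adjusted p 2.61e-06). Its receptor and its decoy receptor went the other way. The receptor gene tnfrsf11a (ENSAMXG00000001061), RANK, had 22.08, 21.82, 15.56 and 17 TPM in CFL against 53.83, 46.93, 39.31 and 40.06 TPM in SFL (-1.20, SE 0.10, adjusted p 2.06e-05). The row TNFRSF11B (ENSAMXG00000035635), osteoprotegerin, the secreted protein that captures RANKL, had 0.47, 0.29, 0.11 and 0.3 TPM in CFL against 3.73, 2.74, 2.69 and 3.19 TPM in SFL (-1.66, SE 0.14, adjusted p 2.08e-05). CFL spheroids thus had more transcript of the ligand and less of both its binding partners, with no overlap of the lines for any of the 3.

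The tnfsf10 group, relatives of TRAIL, which triggers cell death through death receptors, gave the other 4 tested ligands. The widest difference was in tnfsf10l (ENSAMXG00000003673), with 26.97, 20.8, 7.36 and 7.24 TPM in CFL and 1.41, 1.67, 0.09 and 0.58 TPM in SFL (2.97, SE 0.30, adjusted p 4.87e-05). For tnfsf10l3 (ENSAMXG00000005923) the values were 27.35, 26.96, 11.47 and 16.66 TPM in CFL and 9.78, 12.47, 5.69 and 7.03 TPM in SFL (1.12, SE 0.25, adjusted p 0.00446), higher in CFL at each density with ranges that overlapped. Transcripts of tnfsf10 (ENSAMXG00000042620) averaged 8.49 ± 1.78 TPM in CFL and 4.70 ± 0.75 TPM in SFL (n = 4 each; 0.73, SE 0.13, adjusted p 0.00173). In tnfsf10l4 no difference was detected, with 21.0 ± 4.73 TPM in CFL and 21.9 ± 7.19 TPM in SFL (n = 4 each; -0.04, SE 0.21, adjusted p 0.891). Summed over these 4 rows, the levels were 87.57, 77.84, 40.45 and 56.75 TPM in CFL spheroids and 48.56, 40.52, 27.07 and 28.77 TPM in SFL spheroids.

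The gene of TNF itself was under the level for testing, with 0, 0.36, 0.4 and 0.06 TPM of tnfa in CFL and 0.04, 1.92, 0.36 and 0.27 TPM in SFL, and tnfb never passed 0.16 TPM. Its receptor, tnfrsf1a (ENSAMXG00000018943), by contrast had the highest level of all members in CFL, at 80.72, 84.7, 64.32 and 79.71 TPM, against 28.26, 30.46, 18.59 and 23.45 TPM in SFL (1.60, SE 0.15, adjusted p 3.38e-05). The other TNF receptor, tnfrsf1b, was at 1.64 to 2.17 TPM in CFL and 1.62 to 2.58 TPM in SFL and did not pass (-0.14, adjusted p 0.425).

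Among the remaining TNF receptors, tnfrsf21 (ENSAMXG00000010169), known as death receptor 6, had 17.49, 19.51, 12.66 and 13.17 TPM in CFL and 3.74, 5.82, 5.87 and 3.67 TPM in SFL (1.54, SE 0.20, adjusted p 0.000222). Transcripts of tnfrsf9a (ENSAMXG00000029430), related to the T cell costimulatory receptor 4-1BB, were abundant in both lines, at 67.65, 65.93, 55.35 and 55.88 TPM in CFL and 43.25, 42.98, 38.25 and 39.6 TPM in SFL (0.56, SE 0.08, adjusted p 0.000488). The member tnfrsfa (ENSAMXG00000000313) averaged 4.42 ± 2.34 TPM in CFL and 3.04 ± 1.98 TPM in SFL (n = 4 each), which did not pass (0.45, SE 0.27, adjusted p 0.193) but did with density as a replicate block (adjusted p 0.0426) and without the CFL library of 50000 cells (0.65, adjusted p 0.0489). Across the class, 3 were higher, 2 lower and 2 uncalled among 7 tested.

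Both tested colony stimulating factors differed. Transcripts of csf1a (ENSAMXG00000036298), the growth factor of macrophages, had 4.88, 6.76, 2.81 and 5.93 TPM in CFL and 0.04, 0.02, 0 and 0.07 TPM in SFL (2.51, SE 0.23, adjusted p 2.56e-05). With il34, both tested genes for ligands of the Csf1 receptor were thus higher in CFL spheroids. Untested csf1b was at 0 in every CFL library and reached at most 0.04 TPM in SFL. The receptor gene csf1ra itself was barely detected, at 0.38, 0.53, 0.18 and 0.31 TPM in CFL and 0.04, 0, 0 and 0 TPM in SFL. The granulocyte factor csf3a (ENSAMXG00000041544) was lower in CFL, with 26.64, 30.57, 24.46 and 22.49 TPM against 50.62, 32.39, 40.17 and 37.73 TPM in SFL (-0.60, SE 0.14, adjusted p 0.00521).

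The second comparison set large against small spheroids with line in the model. These size classes were chosen because earlier results of the same data showed little change within each class. Such a choice lowers the spread within classes and favours calls, so the adjusted p-values for size are likely too small. In the deposited TPM, 1 of the 34 members was higher and 11 were lower in large spheroids, beside 3.25% higher and 44.8% lower among all genes tested. That lean is shared by the whole table: the median log2 difference, large minus small, was -0.30 over all genes and -0.25 over the members. When libraries were rescaled by median-of-ratios factors, the median over all genes became 0.04, and 4 members were higher and 5 lower, beside 23.3% higher and 21.1% lower of all genes. Under the deposited values, median-of-ratios scaling and quantile normalization alike, 1 member was higher, ccl20b, and 5 were lower, cxcr3.3, il6st, tnfsf10l, tnfsf10l3 and tnfrsfa. None of these 6 passed when a straight slope on log2 cells per well was fitted in place of the size classes. With the slope, ccl20b was at 0.35 per doubling (adjusted p 0.0888). No share over all genes is given for the slope or for calls kept under every scaling.

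The chemokine gene ccl20b had 35.25 and 34.5 TPM in large and 19.87 and 20.67 TPM in small CFL spheroids, and 17.65 and 20.81 TPM in large and 7.46 and 11.94 TPM in small SFL spheroids. Large spheroids of either line were thus above its small ones (0.85, SE 0.14, adjusted p 0.00126 on deposited values and 1.24, SE 0.14, adjusted p 0.000992 rescaled). The receptor gene cxcr3.3 ran the other way, at 1.93 and 3.63 TPM in large and 11.63 and 10.82 TPM in small CFL spheroids, and 2.86 and 5.54 TPM in large and 8.16 and 10.65 TPM in small SFL spheroids (-1.39, SE 0.23, adjusted p 0.00149, and -1.04, adjusted p 0.00414 rescaled). In each line the level at 50000 cells was the lowest of the 4, below that at 100000. The median-of-ratios factors were also lowest at 50000 cells, at 0.783 in CFL and 0.849 in SFL. At 100000 cells they were 0.919 and 0.945, so a dip at 50000 cells is not particular to this gene.

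The death ligand genes tnfsf10l and tnfsf10l3 and the receptor gene tnfrsfa were also lower in large spheroids. For tnfsf10l the difference was -1.26 (SE 0.18, adjusted p 0.000824), or -0.98 rescaled, with 7.36 and 7.24 TPM in large and 26.97 and 20.8 TPM in small CFL spheroids. That of tnfsf10l3 was -0.82 (SE 0.14, adjusted p 0.00156), or -0.44 rescaled. In tnfrsfa the levels were 1.87 and 3.17 TPM in large and 5.57 and 7.07 TPM in small CFL spheroids, and 1.52 and 1.26 TPM in large and 5.34 and 4.05 TPM in small SFL spheroids (-1.16, SE 0.16, adjusted p 0.000732, and -0.85 rescaled). The gp130 gene il6st was lower in large spheroids as well (-0.76, SE 0.15, adjusted p 0.00374, and -0.36, SE 0.12, adjusted p 0.0325 rescaled). Within the lines it passed on deposited values but not when rescaled, at -0.33 in CFL (adjusted p 0.176) and -0.39 in SFL (adjusted p 0.136).

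The other 6 members called lower in large spheroids lost that call when rescaled: ccr12b.2, il10ra, tnfsf10, tnfrsf11a, tnfrsf1a and tnfrsf9a. Their deposited differences lay between -0.58 and -0.20. Rescaled, ccr12b.2 was at -0.22, il10ra at -0.02 and tnfsf10 at -0.03, while tnfrsf11a at 0.03 and tnfrsf1a at 0.07 changed sign without passing the test. For tnfrsf9a the sign changed with a call, to 0.21 (adjusted p 0.0472), and its direction therefore depends on the scaling. The il13ra1 row ENSAMXG00000030064 at 0.57 (adjusted p 0.0119) and il6r at 0.36 (adjusted p 0.0279) were called higher in large spheroids only after rescaling.

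**Figure D4:**
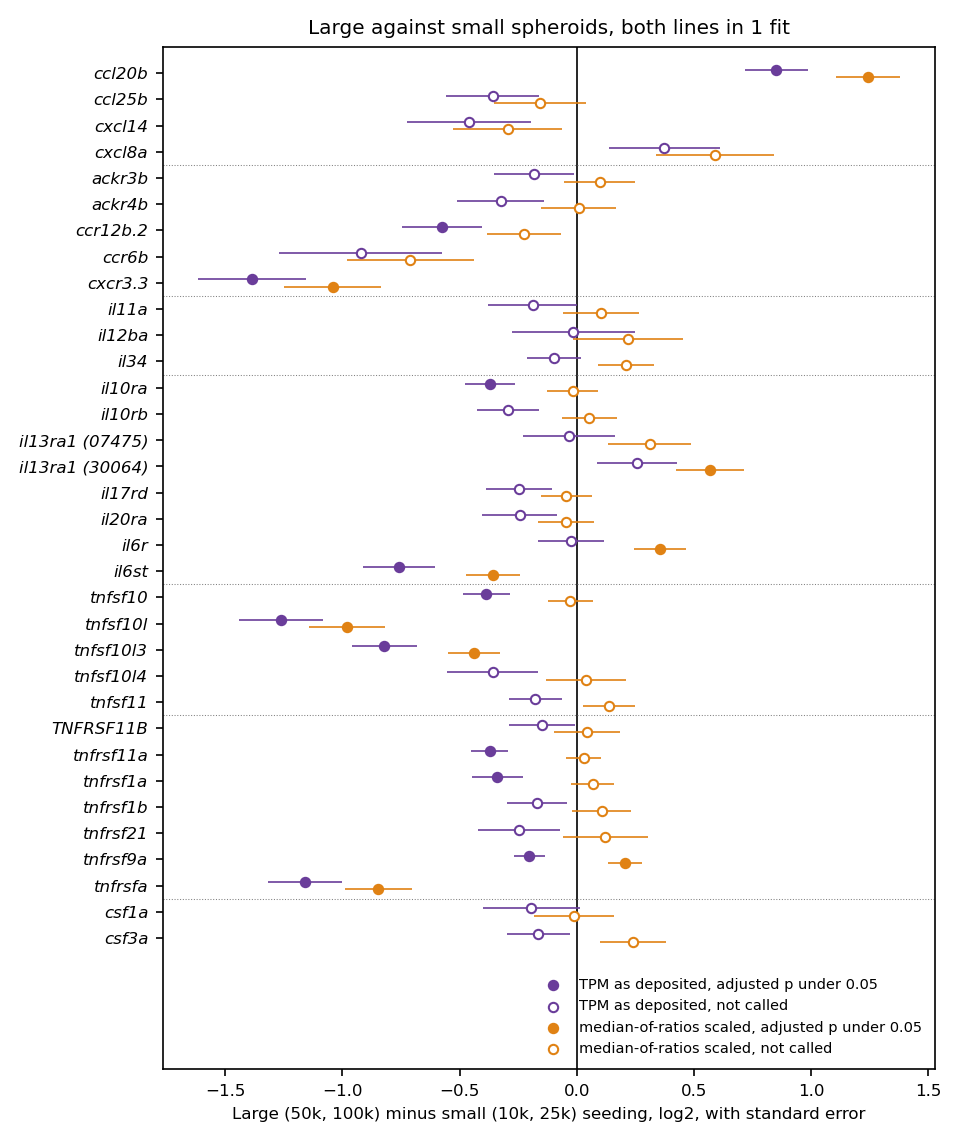
Difference between large and small spheroids for each tested member, large minus small as log2(TPM + 1) with line in the model, on the deposited values and after median-of-ratios scaling; bars are 1 SE on each side. Rescaling moves nearly every member to the right; ccl20b is the member to the right of 0 with a call under both, and cxcr3.3, tnfsf10l and tnfrsfa remain farthest to the left.

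Taken within each line, large against small gave 1 member higher and 10 lower in CFL, beside 2.43% higher and 34.0% lower of all genes, and 2 higher and 6 lower in SFL, beside 1.15% higher and 25.8% lower. Rescaled, the members' counts were 1 higher and 5 lower in CFL and 2 higher and 2 lower in SFL. Among all 13783 genes tested, 4584 were then called in CFL and 2616 in SFL, both directions together. The ccl20b gene was higher in the large spheroids of each line (0.75 with adjusted p 0.0206 in CFL and 0.95 with adjusted p 0.0167 in SFL). The il12ba gene was lower in large CFL spheroids (-0.68, adjusted p 0.0286, not called when rescaled, -0.32 with adjusted p 0.278) and higher in large SFL spheroids (0.66, adjusted p 0.0426, and 0.76, adjusted p 0.0465 rescaled). Its SFL values were all under 1 TPM, at 0.27 and 0.06 TPM in small and 0.74 and 0.92 TPM in large spheroids. At such levels the unknown depth weighs most, so the SFL call is weak. In CFL, ccr6b was lower in large spheroids (-1.84, adjusted p 0.00464, and -1.42, adjusted p 0.00632 rescaled), with SFL at 0. The fit pools the spread of both lines and the SFL zeros add none, so these adjusted p-values are likely too small. Within CFL, cxcl14 was lower in large spheroids too (-1.01, adjusted p 0.0249), a call not kept when rescaled (adjusted p 0.0908). With cxcl14 at 0 to 0.1 TPM in SFL, the same limit holds there. When the difference between the lines was itself tested, 0 members and 0% of all genes passed in limma. At an unadjusted p under 0.05 it held 1132 genes, 4 of them members (cxcl14, ccr6b, il11a and il12ba), and the smallest adjusted p was 0.202 among members (ccr6b) and 0.105 among all genes. The il12ba value was 0.211, so that a different response of the lines to spheroid size was not established for any member.

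Genes that act downstream of these receptors were described by their counts, with no test of a list, and the genes named here were chosen after their values were seen. The shares of all genes to read the counts against are 27.6% higher and 31.3% lower in CFL, as above. Of 29 tested JAK and STAT signalling genes, 5 were higher and 5 lower in CFL spheroids, with a median difference of 0.08, beside -0.04 over all genes. The kinase gene jak3, which pairs with the common gamma chain of lymphocyte cytokine receptors in mammals, had 5.99, 7.71, 3.96 and 5.4 TPM in CFL and 0.02, 0.01, 0 and 0 TPM in SFL (2.72, adjusted p 4.14e-06). The rows for that chain were low, il2rga at up to 0.4 TPM and il2rgb at up to 1.32 TPM. The transcription factor gene stat3, which gp130 activates, was lower in CFL, with 37.67, 33.6, 22.1 and 27.39 TPM against 53.27, 67.4, 50.02 and 65.67 TPM in SFL (-0.96, adjusted p 0.00154). Of its feedback inhibitors, socs3a was lower (-0.83, adjusted p 0.00148) and socs3b higher (0.77, adjusted p 0.0204) in CFL.

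Of 30 tested genes of NF-kB and TNF receptor signalling, 11 were higher and 4 lower in CFL, with a median of 0.03. The higher ones included the NF-kB subunit gene nfkb2, at 77.55, 74.01, 37.31 and 44.88 TPM in CFL against 20.3, 22.62, 15.78 and 16.89 TPM in SFL (1.52, adjusted p 0.000144). Among them were also genes for inhibitors of NF-kB signalling, nfkbiaa (0.78, adjusted p 9.53e-05), nfkbiab (1.17, adjusted p 2.29e-05) and tnfaip3 (0.96, adjusted p 7.27e-05). Among the lower genes of this list was nfkbiz (-1.09, adjusted p 4.01e-05). The 7 tested interleukin 1 and toll adaptor genes held 1 higher and 3 lower, with a median of -0.05. Among 12 tested inflammatory response genes 5 were higher and 3 lower, with a median of 0.04. The lower ones included ptges, a prostaglandin E synthase, with 1.89, 1.22, 1.08 and 0.91 TPM in CFL against 36.87, 21.85, 17.43 and 18.61 TPM in SFL (-3.40, adjusted p 4.69e-07). The cyclooxygenase genes upstream of it were split, ptgs2a higher (1.42, adjusted p 0.000453) and ptgs2b lower (-1.34, adjusted p 0.0269). In large spheroids, 17 of the 29 JAK and STAT genes were lower and 0 higher, beside 44.8% lower and 3.25% higher of all genes. Rescaled, 12 were lower and 0 higher, beside 21.1% lower and 23.3% higher of all genes. Of the 30 NF-kB and TNF signalling genes 14 were lower and 0 higher, or 10 and 10 when rescaled. The adaptor list held 5 lower and 0 higher in large spheroids (1 and 2 rescaled), and the inflammatory list 3 lower and 0 higher (0 and 1 rescaled).

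The 63 members under the level for testing were accounted for as follows. In all 8 libraries 10 were listed at 0, namely ackr3a, ccl19a.1, ccl19a.2, ccl38a.5, ccr10, ccr12a, ccr9b, IL17B, il19l and il7r. A further 44 were above 0 somewhere but never reached 1 TPM, and 9 reached 1 TPM in at least 1 library. Of all 27420 listed genes, 4590 were at 0 throughout and 11905, these included, never reached 1 TPM. With no filter on low values, 12 of the 63 were called between the lines, 7 higher in CFL (ccl20a.3, cxcl12b, il10, il16, il1rapl2, tnfsf13b and csf1ra) and 5 lower (ccl34b.4, ackr4a, cxcr4b, il12bb and il13ra2), all at levels where the unknown depth weighs most. For these 12 calls no share over all genes is given. Per library, 63 to 70 of the 97 members were above 0 in CFL and 55 to 58 in SFL. Of all 27420 genes, 17819 to 19408 were above 0 in CFL and 17935 to 18507 in SFL. At 1 TPM or more were 32 to 33 members in CFL and 27 to 31 in SFL, with no figure over all genes given. All members together summed to 619, 603.1, 403 and 487 TPM in CFL and 459.4, 425.2, 329.3 and 369.4 TPM in SFL spheroids.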

How the data were processed

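Libraries were prepared from polyadenylated RNA with a stranded kit and read as single reads of 75 bases, per the labels' protocols. STAR 2.7.3a and RSEM 1.3.0 are named in the submitters' processing notes. The genome build, annotation and strand setting are not given in the sources used here. The authors deposited TPM, which keeps no depth, so no counting error can be given. All 8 value columns carried the title of 1 sample.

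Values were taken as log2(TPM + 1), and 13783 genes with a mean of at least 1 TPM entered linear models in limma 3.58.1 (R 4.3.3, eBayes with a trend), with Benjamini-Hochberg adjustment and a threshold of 0.05. The line fit had line and log2 cells per well as terms, the size fit had size class and line, and the within-line and interaction contrasts came from 4 groups. Libraries of equal density deviated together (r of 0.51, 0.49, 0.64 and 0.31 from the lowest to the highest density), which met the criterion of an r above 0.1 in every pair. The highest r with a library of another density was 0.52, 0.48, 0.39 and 0.38, above that of the own density at 10000 and 100000 cells. A fit with density as a replicate block was run beside the main one. In all, 17 other settings were tried. Fits were tested on simulated data. Per-library values were given, by rule, for up to 5 called members per class with the largest line difference, further members called for size, and others for their role. Members, lists and size classes were chosen with earlier results of these data known.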

Additional observations from a re-analysis of the deposited data

Results flagged for a closer look

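The 60 groups of 4 libraries examined do not cover all 34 tested members in both lines, so other libraries could stand apart among the rest. Over these groups, a single library stood apart by Dixon's criterion, while chance flags about 1 in 20 groups. It was the CFL spheroid of 50000 cells, in which cxcl8a had 0.85 TPM, against 0.15 to 0.23 TPM at the other CFL densities. The 4 libraries of a line differ in seeding density, so a library that stands apart can also be a density that does. The value lies below all 4 SFL libraries, and cxcl8a stayed lower in CFL without it. No member's size difference was found to differ between the lines over the 34 tested.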

How the results depend on the processing

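The 28 line calls were made under the deposited values, and each of them but il6r, which was not followed across settings, kept its call and direction under every setting computed for it. The count higher in CFL was 20 and the count lower was 8. With a mean of at least 5 TPM, which tests fewer genes, 13 were higher and 6 lower. With no filter on low values, which tests more, 27 were higher and 13 lower. No share over all genes is given under these filters. With density as a replicate block, 22 were higher and 8 lower, since il10rb and tnfrsfa also passed. Size calls moved more. The count higher in large spheroids, 1, became 4 with median-of-ratios scaling, 3 with quantile normalization and 0 with a slope on density, and lay between 1 and 2 with each library left out. The count lower, 11, became 5 with either scaling, 7 with an F test on density and 0 with the slope. It lay between 8 and 12 with each library left out, and the cause was not tested. Among all genes tested, 6622 were called for size on deposited values, both directions together. That total was 6115 with median-of-ratios scaling and 5796 with quantile normalization. For the slope, the F test and the fits without a library, no share over all genes is given. Those counts therefore cannot be read as particular to the members. Among members called on deposited values, size differences changed sign for il10ra (0.015 with quantile normalization), tnfsf10 (0.087, quantile normalization), tnfrsf11a (0.029, median-of-ratios), tnfrsf1a (0.068, median-of-ratios) and tnfrsf9a (0.21, median-of-ratios, and 0.073, quantile normalization). With median-of-ratios scaling the sign changed for 17 of the 34 tested members, 3 called and 14 not called on deposited values, and 1 of the 14, il6r, was then called higher. No share over all genes is given for sign changes. The median over all genes itself moved from -0.30 to 0.04, so the count cannot be read as particular to the members. Leaving out the SFL library of 25000 cells added cxcl8a (0.58) to the members higher in large spheroids. A call lower in large spheroids was lost for il10ra without the CFL library of 10000 cells (-0.33, adjusted p 0.0653), for ccr12b.2 without any 1 of 5 libraries (CFL of 25000 or 50000 cells, SFL of 10000, 50000 or 100000; adjusted p 0.0503 to 0.0595), for tnfrsf1a without any 1 of 5 (CFL of 25000 or 50000, SFL of 10000, 25000 or 50000; adjusted p 0.0626 to 0.084) and for tnfrsf9a without any 1 library but the SFL library of 100000 cells (adjusted p 0.0502 to 0.0946). One was gained by ackr4b (-0.50) and tnfsf10l4 (-0.56) without the CFL library of 100000 cells and by csf3a (-0.31) without the SFL library of 25000 cells. Without any 1 SFL library one was also gained by ccr6b (-1.10), which is at 0 in every SFL library, so that its size difference comes from CFL alone. Unknown depth limits statements on members under 1 TPM.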
